A study of Rattus norvegicus with 9 samples.

Results

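The nuclear-encoded subunits of complexes II to IV of the respiratory chain were followed through RNA-seq of cultured cardiac fibroblasts (CFs), the collagen-producing cells of the heart. The members were chosen by name and are the 5 genes SDHA and SDHB of complex II, UQCRQ of complex III, and COX4I1 and COX6A1 of complex IV, out of 22512 listed genes. All 5 passed the filter for testing, which 10908 genes did (3 or more of the 9 libraries with an FPKM of 1 or more). Each of the 5 reached that level in all 3 AngII libraries and in all 3 treated libraries. Without any 1 treated library only 2522 to 2524 genes passed, so most tested genes passed only through the 3 treated libraries. Shares of tested genes given for AngII against blank thus include many genes below 1 FPKM in both groups. CFs came from neonatal rat hearts by differential adherence, were used after a few passages, and gave 3 libraries in each of 3 groups. The blank group received no treatment, the AngII group received angiotensin II (AngII, a peptide hormone that activates CFs) at 0.1 µM for 72 h, and the vericiguat + AngII treatment group received vericiguat at 1.0 µM for 24 h and then AngII at 0.1 µM for 72 h, as the labels give it. Vericiguat is a stimulator of soluble guanylate cyclase, which produces cGMP. The methods of the migration assay give the agents in the reverse order and with shorter times, and the sequencing methods name the groups without times. The labels do not say whether the 3 libraries of a group came from separate isolations of cells, so p-values measure the spread between these libraries, which may be technical.

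The respiratory chain of the inner mitochondrial membrane passes electrons from nutrients to oxygen and pumps protons, and the proton gradient drives ATP synthesis. Complex II (succinate dehydrogenase) oxidizes succinate in the citrate cycle and reduces ubiquinone, complex III passes electrons from ubiquinol to cytochrome c, and complex IV (cytochrome c oxidase) hands them to oxygen. All subunits of complex II are encoded in the nucleus, whereas complexes III and IV combine nuclear subunits with subunits encoded by mitochondrial DNA, so their assembly draws on both genomes. Heart muscle cells are rich in mitochondria, and CFs are known to hold fewer of them.

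Nuclear respiratory chain genes are often described as sharing promoter elements for NRF1 and for ETS family factors such as GABP. The promoters are shown for description only. In deposited FPKM the 5 genes differed between groups in the same direction. Every AngII library exceeded every blank library for 19.8% of tested genes. Every treated library exceeded every AngII library for 99.7% and every blank library for 99.6%, so that direction is not particular to the 5 genes. After the median-ratio scaling given below, only SDHA kept a positive log2 fold change of the treatment group against AngII. A shared regulator was not tested. The table of RefSeq promoters used here (rat assembly GRCr8) matched 4 of the 5 genes by symbol. Cox6a1 is named only. Each window runs from 120 bases before the annotated start to 30 bases from it, 5′ to 3′ on the gene's strand, at chr1:30764433-30764582 (plus strand) for Sdha, chr5:158547814-158547963 (plus strand) for Sdhb, chr10:38089949-38090098 (minus strand) for Uqcrq and chr19:65630263-65630412 (plus strand) for Cox4i1. Capitals mark matches to the letters GCGCAN followed directly by GCGC (NRF1) or to CCGGAAG (ETS), each searched on both strands.
Sdha: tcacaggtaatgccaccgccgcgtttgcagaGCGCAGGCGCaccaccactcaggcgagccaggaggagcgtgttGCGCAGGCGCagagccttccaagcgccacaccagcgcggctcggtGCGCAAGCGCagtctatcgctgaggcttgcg
Sdhb: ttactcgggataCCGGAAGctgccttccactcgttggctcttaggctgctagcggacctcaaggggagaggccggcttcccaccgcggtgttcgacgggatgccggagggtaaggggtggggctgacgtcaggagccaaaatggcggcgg
Uqcrq: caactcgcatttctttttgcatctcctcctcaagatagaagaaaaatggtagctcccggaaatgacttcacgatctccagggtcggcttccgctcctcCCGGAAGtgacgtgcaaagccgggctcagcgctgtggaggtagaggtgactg
Cox4i1: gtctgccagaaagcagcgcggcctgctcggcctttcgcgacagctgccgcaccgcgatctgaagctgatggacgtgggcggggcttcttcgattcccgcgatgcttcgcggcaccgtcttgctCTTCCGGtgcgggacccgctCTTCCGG
Sdha held 3 NRF1 matches, which begin at positions -89, -46 and -1 relative to the start. Sdhb held 1 ETS match at -108 and Uqcrq held 1 at -22, both on the strand of the gene. Cox4i1 held 2 ETS matches on the opposite strand, at 4 and 24 bases past the start. The NRF1 letters were found in 3.08% and the ETS letters in 6.46% of the 33469 rat promoter windows of the same length. A match is a string of letters in this window and was not tested as a binding site.

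Expression was deposited as FPKM, which divides a gene's fragments by gene length and by the library's mapped fragments. This is meant to let levels of different genes be set side by side. The submitters' processing notes name a rabbit assembly for these rat cells. Whether reads of different genes aligned to it equally well was not tested, so orders, shares and ranks of genes carry this limit. The table holds no counts, and depth could be estimated only as a ratio, from the spacing of low values. It came to 0.712 to 1.39 of that of blank library 1 for the other blank libraries and the AngII libraries. The search carried a bound of 0.5 on the log2 scale, so a larger difference in depth could have been missed. For blank library 2 the most frequent ratio was shared by 159 of 3559 genes. For the treated libraries the estimate of depth rests on only 20 to 32 genes. The 13 entries KEF51_p01 to KEF51_p13, which the table lists without gene names, made up 97.6% to 97.9% of all FPKM in blank cultures, 96.7% to 97.5% under AngII and 45.3% to 52.3% under vericiguat + AngII. Blank library 3 stood apart in that its FPKM lay between those of blank libraries 1 and 2 for 96.1% of 1557 genes, while each other library lay between the remaining pair of its group for 1.61% to 46.1%. All 5 subunits of blank library 3 lay between the other blank libraries as well. Leaving it out therefore changes no lowest or highest deposited blank FPKM of a subunit, and the limma calls and KEF51 ratios are also given without it. Blank library 3 does hold the highest blank values of SDHA, SDHB and UQCRQ after the median-ratio scaling given below. It also holds their best blank ranks among the genes outside the KEF51 entries, which were 1955, 941 and 154 without it. Of 4 listed fibroblast markers, DCN reached 248 to 403 FPKM in the treated libraries and 1.21 to 14.6 in the others.

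UQCRQ, a small subunit of complex III near the ubiquinone site, and COX4I1, the widely expressed isoform of the largest nuclear-encoded subunit of complex IV, were the highest of the 5 genes in every library. UQCRQ read 9.62, 1.29 and 6.275 FPKM in blank libraries 1, 2 and 3. With AngII it read 31.6, 39.2 and 36.5 FPKM, and with vericiguat + AngII 944, 1037 and 782 FPKM. The 3 groups did not overlap, and the spread was widest in proportion within the blank group, where library 2 was lowest. COX4I1 read 8.48, 2.22 and 5.29 FPKM in the blank libraries. With AngII it read 22.8, 43.7 and 31.6 FPKM, and with vericiguat + AngII 1107, 1017 and 886 FPKM. The groups were again separate, and within the AngII group library 2 was highest.

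SDHA, the flavoprotein that holds the succinate-binding site of complex II, read 0.662, 0.114 and 0.601 FPKM in the blank libraries. It read 1.99, 5.37 and 1.92 FPKM in the AngII libraries, where library 2 stood above the other two. In the treated libraries SDHA read 300.1, 199 and 141 FPKM. SDHA was thus lowest of the 5 in 4 of the 6 blank and AngII libraries, and below only UQCRQ and COX4I1 in the treated libraries. SDHB, the iron-sulfur subunit that passes electrons on from SDHA, read 1.64 and 1.26 FPKM in blank libraries 1 and 3 and was listed at 0 in blank library 2. With AngII it read 4.96, 5.31 and 3.195 FPKM, and with vericiguat + AngII 168, 166 and 127 FPKM. No blank library reached the lowest AngII library for either subunit of complex II. COX6A1, the isoform of a complex IV subunit found in most tissues (its heart and muscle counterpart COX6A2 is not listed by symbol), read 1.44, 0.71 and 1.12 FPKM in the blank libraries. With AngII it read 2.61, 2.08 and 5.76 FPKM, and with vericiguat + AngII 86.0, 92.1 and 79.5 FPKM. COX6A1 had the narrowest gap between the blank and AngII groups, and the lowest level of the 5 genes in every treated library. Since these are bulk cultures, a lower level of a transcript cannot be told apart from fewer cells of the type that carries it.

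**Figure D1:**
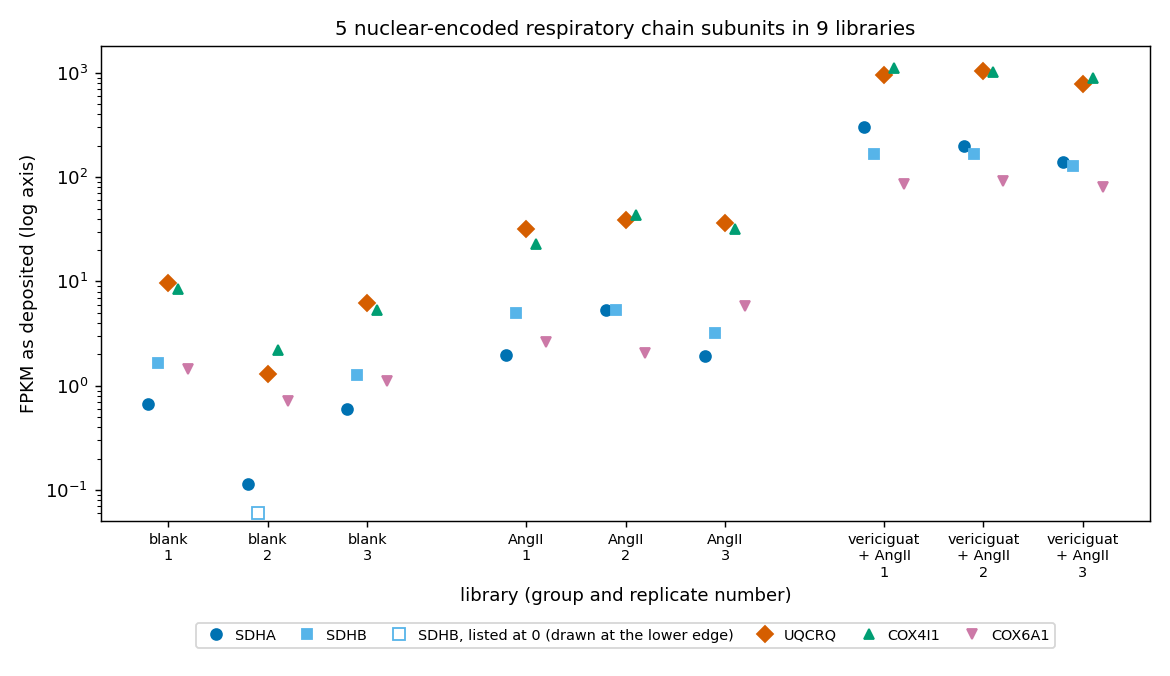
Deposited FPKM (log axis) of the 5 subunits in each of the 9 libraries, 1 point a gene and library. The 3 groups do not overlap for any of the 5 genes, UQCRQ and COX4I1 lie highest throughout, and the open square marks SDHB, which is listed at 0 in blank library 2.

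Between the AngII and blank groups, all 5 subunits were higher in every AngII library than in any blank library, which 19.8% of the tested genes were. The mean of SDHA was 6.73 times, of UQCRQ 6.25 times, of COX4I1 6.13 times, of SDHB 4.63 times and of COX6A1 3.20 times that of the blank group. None of the 5 passed the test of limma on log2(FPKM + 1), which calls a gene whose log2 fold change is 1 or more in size and whose p, adjusted over all tested genes by Benjamini-Hochberg, is below 0.05, and which called 1.55% of them. All 5 had an unadjusted p under 0.05, as did 1567 of the tested genes. The log2 fold change was 2.71 (SE 0.695, limma adjusted p = 0.0876) for UQCRQ and 2.50 (SE 0.644, limma adjusted p = 0.0887) for COX4I1. For SDHB it was 1.57 (SE 0.426, limma adjusted p = 0.104) and for SDHA 1.41 (SE 0.428, limma adjusted p = 0.140). For COX6A1 it was 1.03 (SE 0.354, limma adjusted p = 0.195). The median log2 fold change of the 5 was 1.57, beside 0.06 over all tested genes. Over the 2522 genes that passed the filter without treated library 1, the median was 0.38. Without blank library 3 the log2 fold changes were 1.05 to 2.89, and limma called 0 of the 5 subunits (adjusted p 0.265 to 0.512) and 0.0% of all genes, with 991 genes and all 5 subunits at an unadjusted p under 0.05. Without blank library 2 limma called UQCRQ (2.06) and COX4I1 (2.08), and 2.82% of all genes. Without treated library 1, 2 or 3, where only 2522 to 2524 genes passed the filter, limma called 4 subunits, which left out COX6A1, and 16.3%, 15.4% and 16.2% of all genes.

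That call depended on how libraries were put on a common scale. Median-ratio scaling divides each library by the median ratio of its genes to their geometric mean over libraries. Here it used the 3826 genes above 0 in all 9 libraries, with factors from 0.0792 in blank library 2 to 15.8 in treated library 1. On that scale UQCRQ lay at 16.3 to 23.9 in the blank group and at 87.5 to 109 in the AngII group. COX4I1 lay at 18.3 to 28.0 and at 76.8 to 97.5. SDHA lay at 1.43 to 2.29 and at 5.75 to 12.0, and SDHB at 0 to 4.81 and at 9.56 to 16.7. These 4 genes kept their groups apart (16.9% of tested genes did so in this direction), while COX6A1 overlapped at 3.10 to 8.97 and 4.64 to 17.3. limma then called 4 of the 5 subunits higher in the AngII group, against 5.16% of tested genes called higher and 8.39% called in either direction. The log2 fold change was 2.27 (limma adjusted p = 0.00274) for UQCRQ, 1.98 (limma adjusted p = 0.00505) for COX4I1, 1.70 (limma adjusted p = 0.0113) for SDHA and 2.17 (limma adjusted p = 0.0349) for SDHB, while COX6A1 gave 0.74 (limma adjusted p = 0.291). The same 4 subunits were called without blank library 3, as were 5.47% of all genes. They were also called without treated library 1, where 2522 genes were tested and 18.2% of these were called higher. SDHB was no longer called without blank library 1 or without any 1 AngII library (limma adjusted p from 0.0509 to 0.0895). With only the blank and AngII libraries in the fit, limma called 2 of the 5, UQCRQ and COX4I1, beside 2.54% of all genes.

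Between the treatment and AngII groups, the deposited FPKM of all 5 subunits was higher in every treated library, by 69.0 times in the mean for SDHA, 34.2 times for SDHB, 30.7 times for COX4I1, 25.7 times for UQCRQ and 24.7 times for COX6A1. limma called all 5, with log2 fold changes of 5.74 (SE 0.428) for SDHA, 4.94 (SE 0.644) for COX4I1, 4.83 (SE 0.426) for SDHB, 4.64 (SE 0.695) for UQCRQ and 4.36 (SE 0.354) for COX6A1. The limma adjusted p (Benjamini-Hochberg) was highest for UQCRQ, at 4.18e-05. However, 99.6% of the tested genes were called in this comparison and 99.7% were higher without overlap, so a call is not particular to these genes. The median over all tested genes was 2.76, and the subunits lay above it by 1.60 (COX6A1) to 2.98 (SDHA). That gap depended on the pseudocount. With 0.1 in place of 1 the median was 4.78, and the subunits lay between -0.10 (UQCRQ) and 1.38 (SDHA) from it. With 0.01 the median was 5.92, SDHA lay 0.29 above it, and the other 4 lay between -1.24 (UQCRQ) and -0.80 (SDHB) from it. After median-ratio scaling limma called none of the 5, against 4.16% of tested genes. On that scale SDHA had a log2 fold change of 0.77 (SE 0.341, limma adjusted p = 0.165; unadjusted p = 0.0482) and the other 4 turned to the opposite direction. Without AngII library 2, SDHA was called at 1.07 (limma adjusted p = 0.0338), beside 6.93% of all genes. SDHB had -0.23 (SE 0.579, limma adjusted p = 0.846), COX4I1 -0.38 (SE 0.332, limma adjusted p = 0.508), COX6A1 -0.54 (SE 0.459, limma adjusted p = 0.485) and UQCRQ -0.67 (SE 0.332, limma adjusted p = 0.211). The scaled values of UQCRQ (56.3 to 73.1 in the treatment group) and COX4I1 (63.8 to 71.7) lay below those of every AngII library, as those of 10.8% of tested genes did, and those of the other 3 subunits overlapped. The scaling moved the median of all tested genes from 2.76 to 0.09, and 38.3% of them turned from higher to lower. With quantile normalization SDHB and COX4I1 stayed positive, at 0.13 and 0.22.

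**Figure D2:**
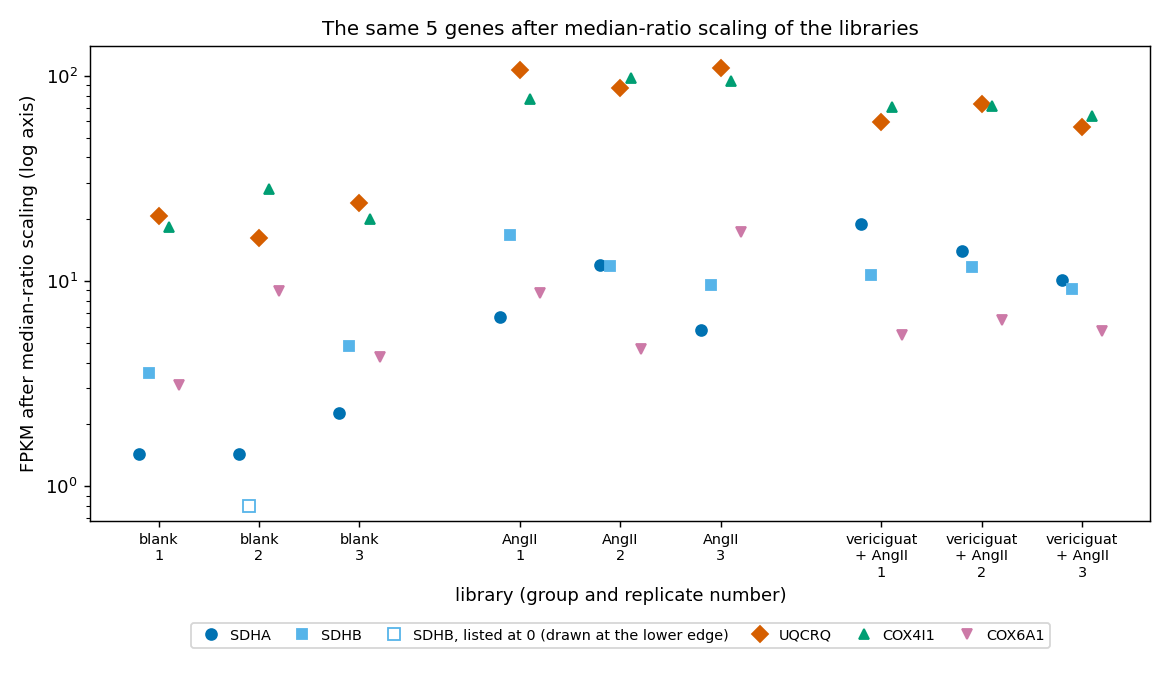
The 5 subunits in each library after median-ratio scaling, in scaled FPKM on a log axis, 1 point a gene and library. In the AngII and treatment libraries SDHA, SDHB, UQCRQ and COX4I1 lie above all blank libraries, COX6A1 overlaps between all groups, and UQCRQ and COX4I1 lie lower with vericiguat + AngII than with AngII alone.

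Between the treatment and blank groups, which share their libraries with the comparisons above, the mean FPKM was 464.5 times higher for SDHA, 188 times for COX4I1, 161 times for UQCRQ, 159 times for SDHB and 78.9 times for COX6A1. All 5 were called by limma at log2 fold changes of 5.39 to 7.44, and so were 99.4% of tested genes, whose median was 2.83. After median-ratio scaling the log2 fold change was 2.47 (limma adjusted p = 0.000829) for SDHA, 1.94 (limma adjusted p = 0.0299) for SDHB, 1.61 (limma adjusted p = 0.00577) for COX4I1, 1.60 (limma adjusted p = 0.00600) for UQCRQ and 0.20 (limma adjusted p = 0.771) for COX6A1. The first 4 were called higher, against 6.15% of tested genes called higher and 9.56% called in either direction, and their groups did not overlap, as was the case for 48.3% of tested genes. Without blank library 3 limma called 5 subunits (99.4% of all genes) on deposited FPKM and 4 (8.88%) on the scaled values. Without treated library 1 or 2, SDHB was no longer called, at 1.74 (limma adjusted p = 0.0591) or 1.69 (limma adjusted p = 0.0656). COX6A1 was thus the subunit not called in any of the 3 comparisons on the scaled values. Ratios of the other subunits to COX6A1 are given with the pairs of subunits.

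**Figure D3:**
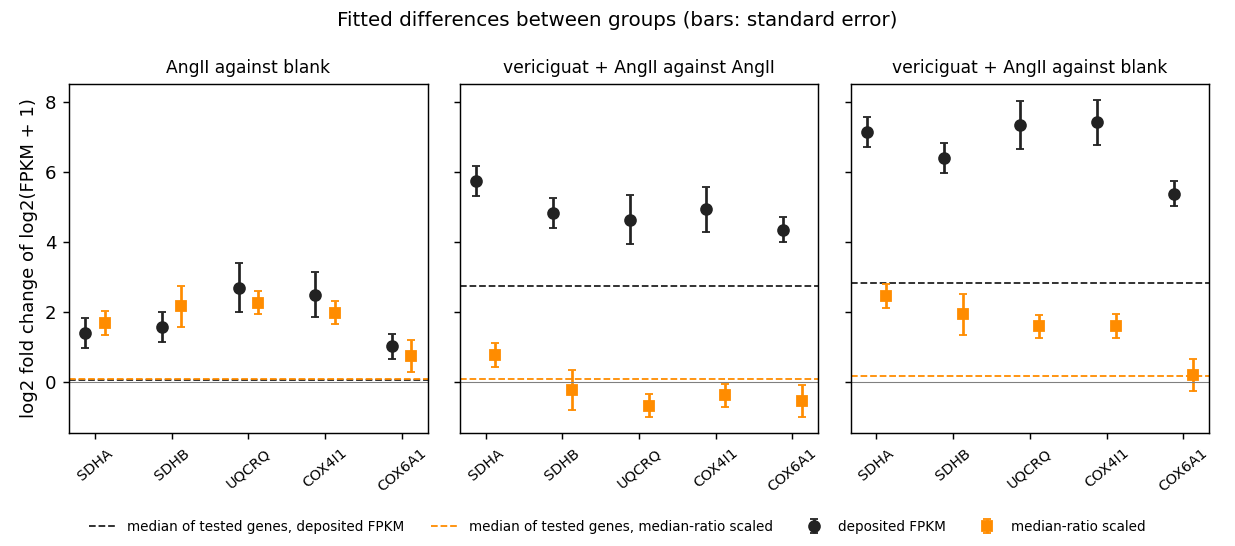
Log2 fold change of each subunit from limma (points, with bars of 1 standard error) in the 3 comparisons, from deposited FPKM (black) and after median-ratio scaling (orange), with dashed lines at the median of all tested genes. For AngII against blank, scaling raised SDHA (1.41 to 1.70) and SDHB (1.57 to 2.17) and lowered UQCRQ (2.71 to 2.27), COX4I1 (2.50 to 1.98) and COX6A1 (1.03 to 0.74). It brought the differences of the treatment group against AngII from 4.36 to 5.74 down to between -0.67 and 0.77, with the median of all genes going from 2.76 to 0.09.

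Levels against the 13 KEF51 entries do not depend on the scale of a library. The summed FPKM of the 5 subunits was 21.8, 4.33 and 14.5 without treatment, 63.9, 95.7 and 79.0 with AngII, and 2605, 2511 and 2016 with vericiguat + AngII. Per 1000000 of summed KEF51 FPKM, this was 15.1, 2.67 and 9.56 without treatment, and 36.0, 54.0 and 50.7 with AngII. With vericiguat + AngII it was 7380, 5337 and 4447. On the log2 scale the ratio differed by 2.67 (pooled SD 0.941) between AngII and blank, by 6.92 (pooled SD 0.344) between the treatment and AngII groups, and by 9.59 (pooled SD 0.951) between the treatment and blank groups. Each gave a two-sided exact permutation p = 0.1, the smallest that 3 libraries against 3 allow, and the groups did not overlap. Without blank library 3 the difference from blank was 2.86 for AngII and 9.78 for the treatment group, each at an exact permutation p = 0.2, the smallest that 3 libraries against 2 allow. Each of the 5 subunits also kept its groups apart on this measure in the 3 comparisons, as 17.3%, 99.8% and 99.8% of the tested genes did. The log2 difference between AngII and blank ran from 1.35 (COX6A1) to 2.87 (UQCRQ), and that between the treatment and AngII groups from 6.69 (UQCRQ) to 8.17 (SDHA).

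The KEF51 entries themselves had a lower sum in the treatment group, at 352929 to 470451 FPKM beside 1451083 to 1619302 without treatment and 1556855 to 1777554 with AngII. The lowest KEF51 entry (KEF51_p12 in every library) was 166 to 2197 times the highest of the 5 subunits in the blank group and 174 to 326 times in the AngII group. In the treatment group it was only 1.76 to 3.92 times the highest subunit. Taken over the FPKM outside the KEF51 entries, the 5 subunits made up 119 to 705 per 1000000 in blank cultures, 1397 to 1660 under AngII and 4647 to 6110 under vericiguat + AngII. On this measure COX6A1 overlapped between the AngII and blank groups, and the other 4 subunits did not (13.5% of tested genes were higher without overlap). All 5 were higher in every treated library than in any AngII library (90.4% of tested genes) and than in any blank library (84.2%).

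**Figure D4:**
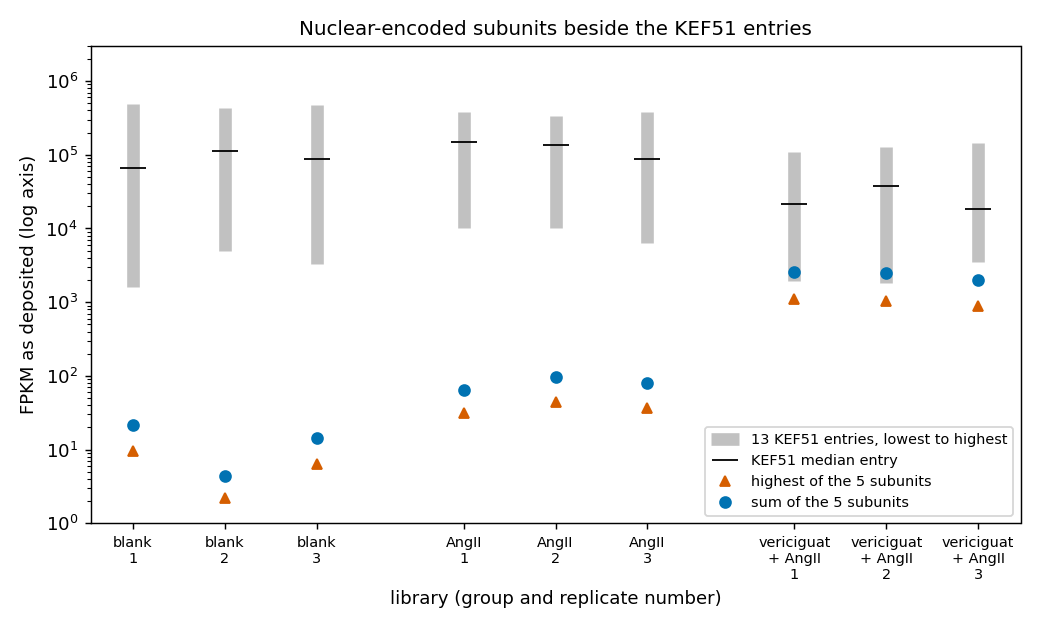
FPKM (log axis) of the 13 KEF51 entries in each library, with grey bars from the lowest to the highest entry and a black mark at the median entry, beside the sum of the 5 subunits (circles) and the highest of them (triangles). The sum of the subunits lies below the lowest KEF51 entry in all blank and AngII libraries and in treated library 3, and above it in treated libraries 1 and 2.

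Rank among the genes outside the KEF51 entries gives a further view without scaling. UQCRQ ranked 132 to 201 in blank cultures, 31 to 47 with AngII and 43 to 50 with vericiguat + AngII. COX4I1 ranked 125 to 166, 26 to 86 and 38 to 45. Both were thus among the genes of highest FPKM in all 9 libraries, with ranks in the AngII libraries that overlapped those of the treated libraries. SDHA ranked 1401 to 2187 in blank cultures, 306 to 679 with AngII and 186 to 317 with vericiguat + AngII. SDHB ranked 941 and 663 in blank libraries 1 and 3, 273 to 444 with AngII and 286 to 342 with vericiguat + AngII. In blank library 2 SDHB shares rank 5499 with the other genes listed at 0. COX6A1 ranked 333 to 1078 in blank cultures, 286 to 730 with AngII and 498 to 563 with vericiguat + AngII, and its 3 groups overlapped.

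The order of the subunits within a library was described next, since FPKM is per length. How alignment to the named rabbit assembly affected this order was not tested. UQCRQ was above COX4I1 in blank libraries 1 and 3, AngII libraries 1 and 3 and treated library 2, and below it in the others. Mean log2 ratios of UQCRQ to COX4I1 were -0.11 ± 0.55, 0.17 ± 0.31 and -0.13 ± 0.14 (SD, n = 3) in the blank, AngII and treatment groups, so the 2 genes did not differ beyond their spread. Below them, SDHA was lowest in blank libraries 1 and 3 and AngII libraries 1 and 3. In all 3 treated libraries the order was SDHA, SDHB and COX6A1 from high to low, as it was in AngII library 2. Of the 10 pairs of subunits, 6 kept the same order in all 9 libraries, each with UQCRQ or COX4I1 as the higher gene. SDHA made up 3.27% ± 0.777 (SD, n = 3) of the 5-subunit sum in blank cultures, 3.72% ± 1.67 with AngII and 8.81% ± 2.40 with vericiguat + AngII. COX6A1 made up 10.2% ± 5.38, 4.52% ± 2.59 and 3.64% ± 0.322 in the same groups.

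**Figure D5:**
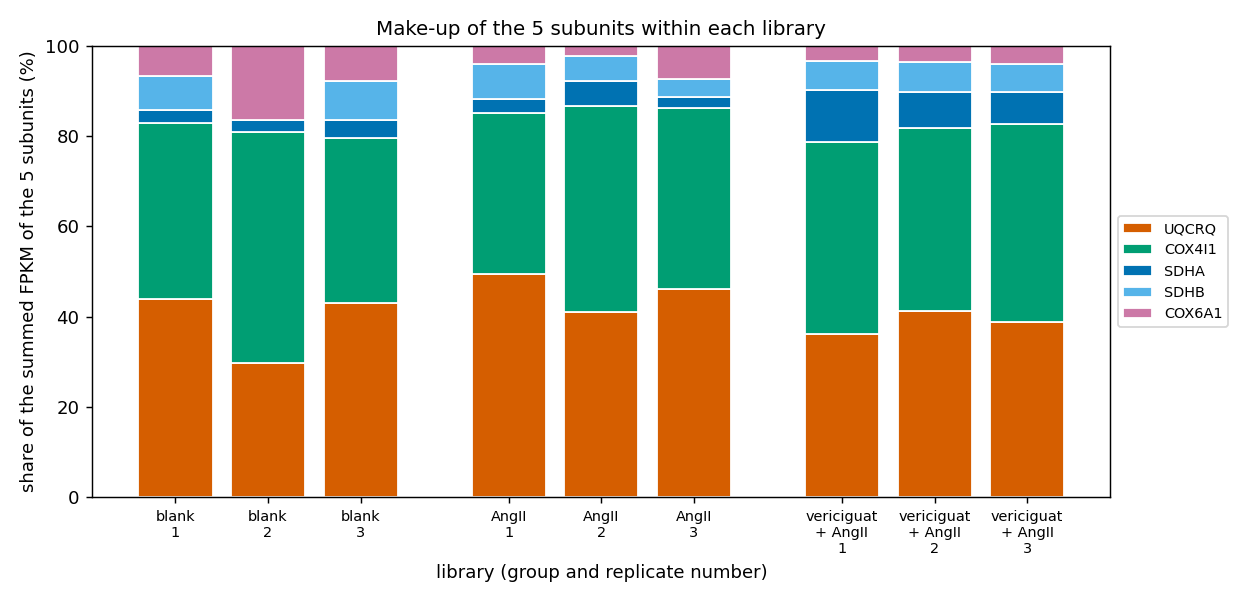
Share of each subunit in the summed FPKM of the 5 (percent, stacked bars to 100) in each of the 9 libraries. UQCRQ and COX4I1 together take most of every bar, the SDHA segment is thickest in the treated libraries and the COX6A1 segment is thickest in blank library 2, at 16.4%.

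Ratios of 2 subunits in 1 library were compared between groups with two-sided exact permutation tests, over 10 pairs in each of the 3 comparisons (30 tests, with log2 of FPKM + 0.1). Between AngII and blank no pair kept its groups apart, beside 28.4% of all pairs of tested genes with a symbol, and the lowest exact p was 0.2 (0.462 after Benjamini-Hochberg adjustment). In the treatment against the AngII group 4 of 10 pairs did, beside 42.7%, namely SDHA over SDHB (log2 difference 1.07), over UQCRQ (1.48) and over COX4I1 (1.18), and SDHB over UQCRQ (0.41). In the treatment against the blank group 6 of 10 pairs did, beside 59.3%. These were SDHA over UQCRQ, SDHA over COX4I1 and all 4 pairs with COX6A1. The log2 ratio to COX6A1 was higher with vericiguat + AngII by 2.49 for SDHA, 1.72 for SDHB, 1.49 for COX4I1 and 1.47 for UQCRQ. The exact p of these pairs was 0.1, the smallest possible, and 0.3 after Benjamini-Hochberg adjustment. These shares lie near those of all pairs, and a test of 3 libraries against 3 could not have reached an adjusted p below 0.05. SDHB over COX4I1 overlapped between the groups in all 3 comparisons, with an SD of 1.39 in the blank, 0.57 in the AngII and 0.10 in the treatment group.

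Of the respiratory chain lists, the table gave by symbol 2 of 4 nuclear subunits of complex II, 1 of 9 of complex III and 2 of 16 of complex IV, which are the 5 members. None of the 37 nuclear subunits of complex I, of the 30 assembly factors of complexes II to IV or of the 13 genes of mitochondrial DNA that were searched was listed by symbol. Most of the table (20346 entries) carries LOC numbers that were not assigned to genes, so genes under such numbers were not analysed here. The 13 KEF51 entries carry no gene names, and which gene each stands for is not known here. ATP synthase (complex V) was covered by 17 of 19 nuclear subunits. Between AngII and blank, limma called 5 of the 17 higher (8 after median-ratio scaling) and 0 lower, with a median log2 fold change of 1.84. Of all tested genes 1.44% were called higher there, and 5.16% after scaling. Against AngII, all 17 were called higher with vericiguat + AngII, as were 99.5% of tested genes, and none after median-ratio scaling, where their median was -0.34. Against blank, all 17 were called higher as well (99.3% of tested genes), and 9 after scaling (6.15%). ATP5ME, a small membrane subunit of the enzyme, read 9.33 to 30.7, 57.0 to 79.7 and 1350 to 2315 FPKM in the 3 groups. ATP5IF1, its inhibitory factor, read 9.11 to 29.5, 14.3 to 39.9 and 1374 to 2085 FPKM.

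Among 15 electron carriers and neighbours of the chain, SLC25A4 and COQ8A were listed. SLC25A4, which exchanges ADP and ATP across the inner membrane, had a log2 fold change of 4.16 between AngII and blank (SE 0.540, limma with Benjamini-Hochberg adjusted p = 0.0153), while COQ8A, which acts in ubiquinone synthesis, had 1.64 (limma adjusted p = 0.173). Of 21 citrate cycle genes 4 were listed, and limma called none between AngII and blank, on either scale. CS, ACO1 and IDH1 read at most 0.043, 0.391 and 0.162 FPKM in the blank and AngII libraries. On deposited log2(FPKM + 1) these levels are too low for a log2 fold change of 1, so the absence of calls says little about them. IDH3G, a subunit of the NAD-dependent isocitrate dehydrogenase, read 0.473 to 2.12, 1.63 to 7.23 and 136 to 178 FPKM in the 3 groups. IDH1, the cytosolic NADP-dependent enzyme, read 0 to 0.047, 0 to 0.162 and 9.295 to 12.3 FPKM. In both comparisons with the treated libraries limma called all 4 higher there, beside 99.5% and 99.3% of tested genes, and none after scaling. Of 15 regulators of respiratory chain genes, only TWNK, the mitochondrial DNA helicase, was listed, at 2.35 to 3.13 FPKM in the treated libraries and 0.279 or less in the others.

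Markers of other heart cells were summed beside the subunits. All 6 sums were higher in every treated library than in any other library. Of single tested genes, 99.7% were higher without overlap against AngII and 99.6% against blank, so on deposited FPKM this is not particular to the markers. After median-ratio scaling limma called 2 of 2 endothelial, 2 of 5 tested cardiomyocyte and 1 of 3 smooth muscle and pericyte markers higher against AngII. It called 0 of 4 fibroblast, 0 of 2 red blood cell and 0 of 1 macrophage markers higher, beside 2.34% of tested genes. Between AngII and blank only the cardiomyocyte sum kept its groups apart, where 19.8% of tested genes were higher without overlap. Of 15 cardiomyocyte markers 6 were listed (MYH6, MYH7, TTN, RYR2, PLN and NPPA), and their summed FPKM was 6.80 to 9.06 without treatment, 45.0 to 109 with AngII and 3812 to 6077 with vericiguat + AngII. MYH7, a cardiac myosin heavy chain, read 1.38 to 3.97, 9.38 to 55.7 and 2766 to 4346 FPKM, while NPPA was listed at 0 in all blank libraries and stayed at 0.449 or less. In deposited FPKM, AngII library 2 was highest in its group for SDHA, SDHB, UQCRQ and COX4I1 and lowest for COX6A1. After median-ratio scaling SDHA and COX4I1 stayed highest there and COX6A1 lowest. SDHB then lay between the other AngII libraries, and UQCRQ was lowest there, at 87.5 beside 106 and 109. Of the cardiomyocyte markers, MYH6 (44.9 FPKM, beside 2.68 and 4.67 in the other AngII libraries), MYH7, TTN and RYR2 were highest in AngII library 2 in deposited FPKM. PLN was lowest there, at 7.57 FPKM beside 32.6 and 25.8, and NPPA was listed at 0. Per 1000000 outside the KEF51 entries the 6 markers summed to 188 to 243, 958 to 1894 and 8788 to 14255 in the 3 groups. The 4 listed of 14 fibroblast markers (COL1A2, DCN, LUM and FN1) summed to 1.70 to 24.7, 7.09 to 25.7 and 368 to 527 FPKM, and did not separate the AngII from the blank group. The 2 listed of 7 endothelial markers summed to 0.054 to 0.398, 0.083 to 0.421 and 81.3 to 86.2 FPKM. The 3 listed of 8 smooth muscle and pericyte markers summed to 0.92 to 25.2, 4.70 to 6.85 and 428 to 731 FPKM. The single listed of 7 macrophage markers read 0.151 to 1.14, 0 to 0.202 and 5.16 to 8.56 FPKM, and the 2 listed of 7 red blood cell markers summed to 154 to 398, 204 to 310.2 and 8364 to 15127 FPKM. Per 1000000 outside the KEF51 entries the fibroblast markers summed to 47.0 to 797, 123 to 562 and 848 to 1236. The red blood cell, endothelial, and smooth muscle and pericyte sums were also higher in every treated library on that measure. The macrophage marker overlapped, at 12.0 to 19.7 in the treated and 4.17 to 36.7 in the blank libraries. The part of these cells in the levels of the 5 subunits was not tested.

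The genes whose log2(FPKM + 1) followed the mean of the 5 subunits most closely over the 9 libraries were VDAC1, the main channel of the outer mitochondrial membrane (Pearson's r 0.997), EEF1A2, the translation elongation factor isoform of muscle and neurons (0.997), ATP5PB of ATP synthase (0.996), LDHB, the lactate dehydrogenase subunit abundant in heart (0.996), and ATP5ME (0.995). They were taken from the 1080 tested genes with a symbol other than the 5. VDAC1 read 0.157 to 0.604, 2.65 to 4.11 and 98.0 to 160 FPKM in the 3 groups. LDHB read 2.82 to 4.42, 14.8 to 17.8 and 337 to 724 FPKM. These correlations are descriptive and share the gap between the treated and other libraries, since 78.0% of the 10903 other tested genes had an r of at least 0.95.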

How the data were processed

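RNA of 9 CF cultures (3 blank, 3 AngII, 3 vericiguat + AngII) was sequenced from TruSeq libraries of total RNA. The authors filtered the reads, aligned them to a reference, added predicted coding transcripts and deposited expression as FPKM. The submitters' processing notes name FastQC 0.11.9, Trimmomatic 0.39, HISAT2 2.2.1, featureCounts 2.0.1 and OryCun2.0, a rabbit assembly, although the organism is given as rat. How this affected the values was not tested, and no coordinates of the files were used.

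Groups were taken from the labels. The deposited FPKM were tested with limma 3.58.1 in R 4.3.3 (lmFit, eBayes with a mean-variance trend) on log2(FPKM + 1), with all 9 libraries in a single fit, no covariate and Benjamini-Hochberg adjustment over the 10908 genes that reached FPKM 1 in 3 or more libraries. Fold changes on this scale understate those of low genes. Ratios were compared with exact permutation tests in SciPy 1.17.1, and figures were drawn with matplotlib 3.10.9. The fit was also run on simulated data with 200 changed genes. These simulated data held no difference in scale between libraries, so the run does not bear on the choice of scaling.

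The 5 members and the lists were chosen with earlier results of these data known. The genes named were the 5 members, the KEF51 entries, up to 2 genes of each other pathway list by mean FPKM, markers from the lists, and the 5 genes most correlated with the members. Alternatives were other pseudocounts, filters and scalings, a block for the replicate number, a fit of only the compared groups, and each library left out. Combinations of median-ratio scaling with other alternatives were added after the data were seen.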

Additional observations from a re-analysis of the deposited data

How the results depend on the processing

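The count of subunits called by limma between AngII and blank (0 on deposited FPKM) was 3 with a pseudocount of 0.1 or 0.01 (8.88% and 10.9% of tested genes called), 4 with a mean FPKM of at least 5 (10.9%), 4 with median-ratio scaling (8.39%), 3 with quantile normalization over all listed genes (14.5%) and 2 with eBayes without trend (2.02%). With median-ratio scaling it was 2 with only the compared groups (2.54%) and 3 with a pseudocount of 0.1 (15.8%). It stayed 0 with a common sum (0.183%), a common sum without the KEF51 entries (6.40%), no filter (0.432%) and only the compared groups (0.0%). Leaving out each library gave 0 to 4 (2 without blank library 2, and 4 without any 1 treated library, where fewer genes were tested) on deposited FPKM and 3 to 4 with median-ratio scaling. For the treatment group against AngII, 5 subunits were called on deposited FPKM, 3 after rescaling to a common sum without the KEF51 entries (77.0% of tested genes), 0 with median-ratio scaling (4.16%), 0 with quantile normalization (6.27%), and 0 with median-ratio scaling and either only the compared groups or a pseudocount of 0.1. Leaving out each library gave 5 throughout, and 0 to 1 with median-ratio scaling, where SDHA was called without AngII library 2. For the treatment group against blank, 5 became 3 with quantile normalization (19.5%) and 3 with median-ratio scaling and a pseudocount of 0.1 (30.6%), and 3 to 4 with median-ratio scaling and each library left out.

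The direction of the treatment group against AngII turned for 4 subunits. With median-ratio scaling (with or without restriction to the compared groups) the log2 fold change was -0.23 for SDHB, -0.67 for UQCRQ, -0.38 for COX4I1 and -0.54 for COX6A1, and with a pseudocount of 0.1 as well it was -0.24, -0.68, -0.38 and -0.59. With quantile normalization UQCRQ had -0.12 and COX6A1 -0.21. With each library left out, SDHB ran from -0.44 to -0.07 with median-ratio scaling (4.65 to 4.96 on deposited FPKM), UQCRQ from -0.78 to -0.60 (4.55 to 4.76), COX4I1 from -0.53 to -0.30 (4.71 to 5.17) and COX6A1 from -0.96 to -0.15 (4.13 to 4.70). Against blank, COX6A1 of the treatment group ran from -0.088 to 0.47 (5.25 to 5.51), negative without blank library 1. The log2 ratio to the KEF51 entries between AngII and blank ran from 1.94 to 3.19 with each library left out, from 6.72 to 7.09 between the treatment and AngII groups and from 8.87 to 10.1 between the treatment and blank groups. The causes were not tested.

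Deviations of same-numbered libraries from their group means correlated at -0.0616 to 0.0646. No pairing by number was seen, though 3 libraries a group cannot exclude one. With the replicate number as a block, limma called 0, 5 and 5 subunits in the 3 comparisons and 7 genes in all between AngII and blank (169 without it). Pairing left the smallest exact p of the KEF51 ratio at 0.25. Depth is unknown in fragments, so counting error could not be given, and an FPKM of 0 is given as listed.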
